A study of Mus musculus with 2 samples.

Results

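In mouse heart at 21 days of age, 721 stretches of chromosomes 1 to 19 carried 4 or more neighbouring narrow peaks of H3R17me2a, the asymmetric dimethylation of arginine 17 on histone H3. Peaks of the first deposited list that overlapped a peak of the other by at least 1 bp were taken as shared, shared peaks separated by at most 12.5 kb were joined, and a joined region was kept when it held at least 4 shared peaks and none of them was 2000 bp or wider. The 20591 shared peaks formed 11735 joined regions, of which these dense clusters were 721. They held 4269 peaks, or 20.7% of all shared peaks. The other joined regions were 155 with at least 4 peaks and a wide one, 2685 of 2 or 3 peaks and 8174 lone peaks. The clusters were thus chosen by measured peak positions and widths, and peak number, spacing, span and width are given as a description, without a test.

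H3R17me2a is deposited by Carm1, an arginine methyltransferase that is recruited as a coactivator by nuclear receptors and other transcription factors, and the mark is usually read as one of active promoters and enhancers. Joining neighbouring peaks over 12.5 kb is the customary step by which stretches of many enhancers, often called super-enhancers, are assembled from single peaks. Such stretches are known from other marks to lie at genes that define a cell type. Whether the clusters described here act as enhancers was not measured.

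Both samples are hearts of wild-type mice at 21 days and make up 1 group, so no other genotype, treatment or age enters. The labels' source field names cardiac fibroblasts, whereas the tissue field and the protocol describe homogenised frozen heart. The titles name Carm1 although the genotype is wild type, and the series design calls the hearts neonatal. All 6 cardiomyocyte markers (Myh6, Tnnt2, Tnni3, Actn2, Ryr2 and Pln) had a shared peak within 1000 bp of their span, as did 2 of 4 mural, 1 of 4 immune and 1 of 5 endothelial markers, 13 of 26 collagen and matrix genes and 46.9% of all coding genes. Of the 6 fibroblast markers (Col1a1, Col1a2, Col3a1, Pdgfra, Postn and Tcf21), 0 had one. The samples are called list 1 and list 2 after their deposited peak lists. On chromosomes 1 to 19 list 1 held 21198 peaks and list 2 held 37368. The weakest peak reached a −log10 p of 5.0 there in list 1 but 2.01 in list 2, and 97.1% of list 1 peaks were shared. At shared peaks of the clusters both lists appeared to rest on nearly the same reads. Of the 4269 peaks, 41.0% had their summit on the same base in both lists, and the recovered reads at the summit differed by a median of 1. Over all shared peaks these values were 42.2% and 1, so they were not particular to the clusters. Folds matched less closely, with a Spearman rank correlation of 0.594 between the lists at cluster peaks. List 2 reads were recovered with a scaling factor fitted by taking the reads as equal at peaks with the same summit base. The difference of 1 is thus not independent of that fit. The samples were therefore counted as 1, values from the lists stand side by side with no SD, and agreement between the lists is no replicate check. In bulk tissue, a mark carried by fewer cells and a weaker mark in every cell cannot be told apart.

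Promoter windows in named clusters that a shared peak overlapped, wholly or in part, were ranked by the list 1 fold of that peak. The 4 with the highest fold are printed from RefSeq (GRCm38.p6, whose primary chromosomes match mm10), 5′ to 3′ on the strand of the gene. Each runs from 250 bases before the start to 50 after it. Capitals mark matches on either strand to 5 of the motifs searched, namely TATAAA (the TATA box), GGGCGG (the GC box), AGATAA (the GATA motif), AAGGTCA (a core bound by nuclear receptors) and the MEF2 core, that is CTA with TAG after a further 4 bases of any kind; the common E-box, also searched, is left in lower case. Asb2 encodes the substrate adaptor of a muscle ubiquitin ligase and its window is chr12:103355952-103356251 (minus strand). Hyal3 encodes a hyaluronidase-like protein and its window is chr9:107581046-107581345 (plus strand). Hspb3 encodes a small heat shock protein of muscle and its window is chr13:113663627-113663926 (minus strand). Tpgs1 encodes a subunit of the tubulin polyglutamylase complex and its window is chr10:79669189-79669488 (plus strand).
Asb2: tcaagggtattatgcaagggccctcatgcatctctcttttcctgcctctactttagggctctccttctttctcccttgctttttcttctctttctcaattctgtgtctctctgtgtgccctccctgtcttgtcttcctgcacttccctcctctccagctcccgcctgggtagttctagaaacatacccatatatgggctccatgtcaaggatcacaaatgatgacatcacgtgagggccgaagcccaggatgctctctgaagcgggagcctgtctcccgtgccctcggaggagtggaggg
Hyal3: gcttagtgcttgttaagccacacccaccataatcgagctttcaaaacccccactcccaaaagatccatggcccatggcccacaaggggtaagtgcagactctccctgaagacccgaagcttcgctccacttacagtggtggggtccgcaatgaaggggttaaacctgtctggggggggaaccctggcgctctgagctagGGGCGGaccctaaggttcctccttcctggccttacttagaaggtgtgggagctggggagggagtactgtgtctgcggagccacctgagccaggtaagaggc
Hspb3: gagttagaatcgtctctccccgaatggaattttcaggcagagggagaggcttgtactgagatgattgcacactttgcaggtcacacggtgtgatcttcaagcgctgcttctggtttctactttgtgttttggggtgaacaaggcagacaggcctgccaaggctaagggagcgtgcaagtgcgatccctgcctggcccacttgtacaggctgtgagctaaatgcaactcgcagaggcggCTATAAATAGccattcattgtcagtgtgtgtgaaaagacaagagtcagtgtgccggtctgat
Tpgs1: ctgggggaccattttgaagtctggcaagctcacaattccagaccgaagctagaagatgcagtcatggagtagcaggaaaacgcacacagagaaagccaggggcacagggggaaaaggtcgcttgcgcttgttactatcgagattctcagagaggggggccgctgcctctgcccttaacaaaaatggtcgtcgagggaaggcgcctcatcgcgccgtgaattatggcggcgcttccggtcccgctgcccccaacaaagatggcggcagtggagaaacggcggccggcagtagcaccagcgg
The peak over the Asb2 start had a fold enrichment of 10.3 in list 1 and 7.79 in list 2, where fold is the enrichment over background that the authors' caller gave at a peak's summit. The Hyal3 peak had folds of 9.45 and 7.93 in lists 1 and 2, the Hspb3 peak 9.26 and 6.37, and the Tpgs1 peak 9.05 and 5.47. Only the peaks of Asb2 and Tpgs1 covered the gene start. The Hyal3 peak ended before the start and the Hspb3 peak lay past it. Each of these overlapped only part of its window and had its summit outside the window. The Hspb3 window held a single stretch in which TATAAA and the MEF2 core overlap. The Hyal3 window held 1 GGGCGG match, and the windows of Asb2 and Tpgs1 held none of the 5 motifs in capitals. The capitals in the Hspb3 and Hyal3 windows lay outside the peaks, so the folds do not belong to those letters.

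A muscle microRNA lay under a peak as well. The Mir499 hairpin (chr2:155622880-155622958, plus strand) lies within the span of Myh7b, a myosin heavy chain gene, in a cluster of 9 peaks over 33.9 kb, and the peak over it had folds of 8.0 in list 1 and 4.89 in list 2. Capitals in its mature sequences (RefSeq) mark the seed, bases 2 to 8.
mmu-miR-499-5p: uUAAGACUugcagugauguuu
mmu-miR-499-3p: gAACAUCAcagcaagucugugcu
In all, 44 of the 919 microRNA hairpins in the sequence table (4.79%) lay in 34 clusters, a share near the 4.92% of coding genes that clusters overlapped. Of those 44, 8 were under a shared peak, as were 52 of all 919 (5.66%). Clusters are made of shared peaks, so a hairpin in them is more likely to lie under one by the rule itself.

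The clusters held 4 to 44 peaks, with a median of 5 (quartiles 4 and 6). Those with 4 or 5 peaks made up 64.8%, or 467 clusters, 68 held at least 10 and 7 held at least 20. Their span ran from 2.84 to 153 kb, with a median of 18.4 kb (quartiles 12.3 and 25.6 kb). Peaks covered a median of 16.6% of a cluster's span in list 1, and list 2 peaks covered 24.0%. The median density was 2.87 shared peaks per 10 kb. Gaps between neighbouring peaks inside clusters had a median of 2.28 kb, against 18.9 kb over all neighbouring shared peaks, and 32.1% were under 1 kb. Clusters lay on every chromosome from 1 to 19, from 64 on chromosome 11 to 19 on chromosome 14. List 2 placed 4901 peaks in them, more than the shared count in 360 clusters and fewer in 145. On list 2 alone, whose limit is looser, the same rule gave 1594 clusters, and on list 1 alone 749.

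**Figure D1:**
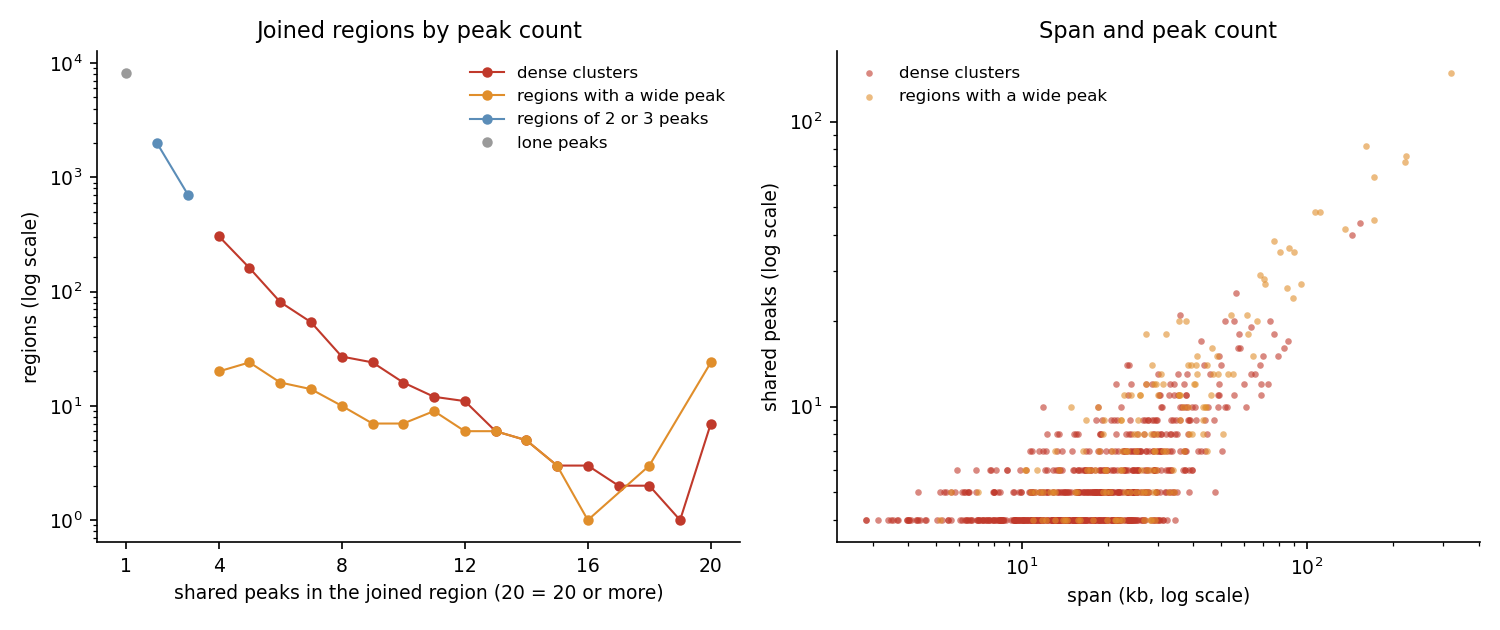
Left, number of joined regions (log scale) by the number of shared peaks in them, with regions of 20 or more drawn at 20, for dense clusters, regions with a wide peak, regions of 2 or 3 peaks and lone peaks. Right, span (kb, log scale) against peak number (log scale) for each dense cluster and each region with a wide peak; the clusters end at 44 peaks and 153 kb, and the regions with a wide peak run to 148 peaks.

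The limits of the rule cut through continuous distributions. Clusters of 4 peaks had a median span of 13.5 kb and a median list 1 fold of 5.20, and the 705 regions of 3 peaks just outside had 9.23 kb and 5.07. In 23 clusters the widest peak came within 100 bp of the limit, at up to 1999 bp, and 18 regions were left out with a widest peak less than 100 bp past it. Among gaps, 252 fell within 1 kb below the joining limit and 254 within 1 kb above it. The 155 regions left out for a wide peak had a median of 8 peaks and 28.5 kb.

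Single peaks of the clusters rested on few reads. Cluster peaks had a median list 1 fold of 5.09 (quartiles 4.0 and 6.54), against 5.11 in regions with a wide peak, 5.0 in regions of 2 or 3 peaks and 4.75 in lone peaks. In list 2 the medians were 4.21 for cluster peaks, 3.95 with a wide peak, 4.25 in regions of 2 or 3 peaks and 4.21 for lone peaks. The order of these groups thus differed between the lists. The reads recovered from the deposited values at the list 1 summit had a median of 21 in cluster peaks over a local background of 3.0, against 34 in lone peaks over a background of 6.0. At that depth the fold of a single peak carries a wide counting error. In list 2, 69.6% of the partners of cluster peaks reached a −log10 p of 5, against 79.6% for lone peaks.

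**Figure D2:**
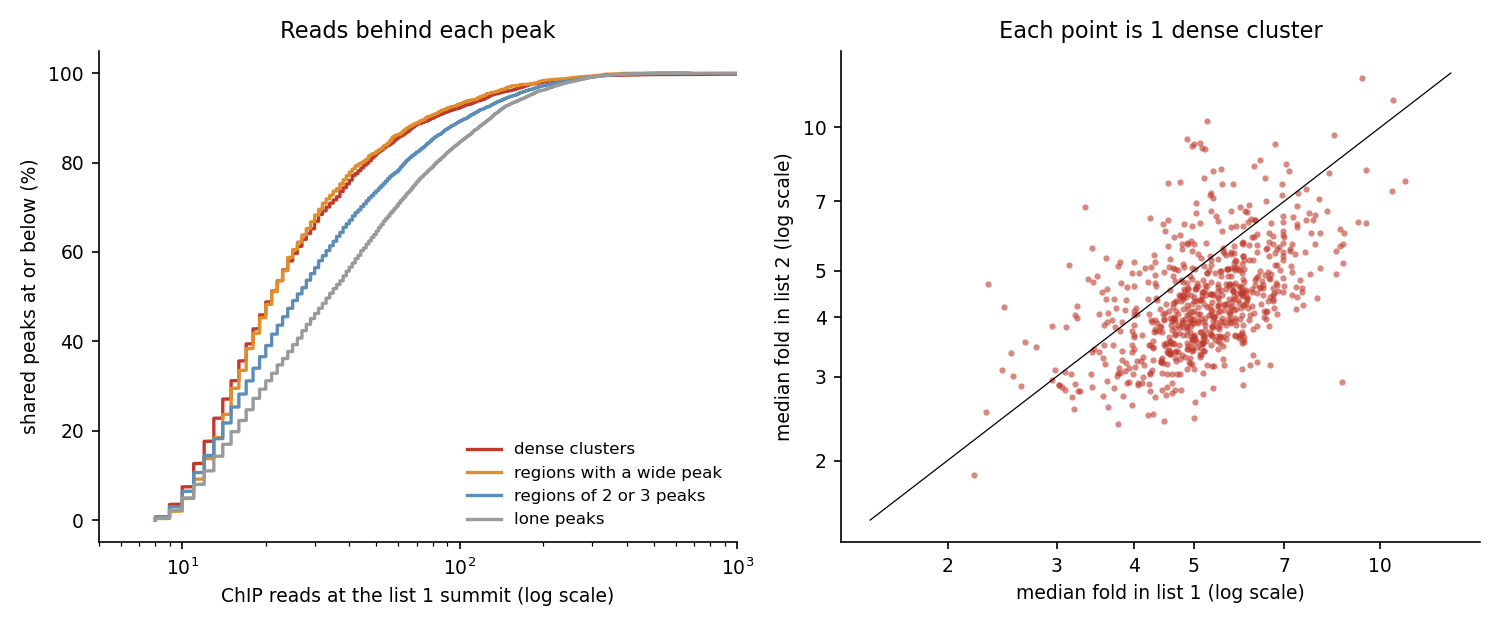
Left, cumulative share (%) of shared peaks by reads at the list 1 summit (log scale, drawn to 1000 reads) for the 4 kinds of joined region; the median is 21 reads in dense clusters and 34 in lone peaks. Right, median list 1 fold against median list 2 fold (both log scale) with 1 point per dense cluster and the line of equality; most points lie below the line.

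Most cluster peaks lay in the bodies of genes. Of the cluster peaks, 60.6% had their midpoint inside a protein-coding gene and over 1000 bp from its ends, 19.5% (831 peaks; exact 95% binomial interval 18.3 to 20.7, counting error only) lay within 1000 bp of a gene end, 5.20% lay in another annotated gene and 14.8% between genes. Lone peaks lay at gene ends in 53.1% and inside coding genes in 29.0%. Regions with a wide peak had 12.3% at gene ends and 72.7% inside coding genes, a higher inside share than in the clusters. Regions of 2 or 3 peaks had 34.7% and 44.4%, and of all shared peaks 44.5% lay inside coding genes. The rule used peak positions, so these shares carry no test. Promoter peaks were present in about as many clusters as they were missing from: 361 held at least 1 peak over a promoter window, 238 of them exactly 1, and 360 held none.

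By layout, 291 clusters (40.4%) had every peak midpoint in the span of 1 protein-coding gene, 126 (17.5%) had at least 50% of midpoints at gene ends, and 304 (42.2%) were mixed. The 1-gene clusters had a median span of 17.2 kb and median folds of 5.59 in list 1 and 4.37 in list 2. The gene-end clusters spanned a median of 19.01 kb and 3 coding genes, with folds of 4.56 and 4.05, and the mixed ones spanned 19.1 kb with folds of 5.01 and 4.17. The 251 genes that held a 1-gene cluster had a median length of 114 kb, against 29.0 kb for coding genes with a shared peak inside and 17.5 kb for all coding genes.

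Positions were counted along 198 of those 251 genes, where the peaks were spread over the whole span. The other genes did not enter these counts. The 1321 peaks of 1-gene clusters counted, gene ends included, had a median position 43.5% of the way from start to end. Their median distance from the start was 46.7 kb, with 24.1% in the first 20% of the span and 13.9% in the last 20%. The 4450 lone peaks with their midpoint in the span of 1 coding gene, gene ends again included, had a median position of 2.20% and 66.7% in the first 20% of the span. Only 4.47% of the cluster peaks were within 1 kb of the start, against 56.4% of the lone peaks. The 1-gene layout asks that all midpoints of a cluster lie in 1 gene, and the genes that hold such clusters are long. Few of their peaks could thus lie near a start, and the contrast with lone peaks is set in part by the layout.

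**Figure D3:**
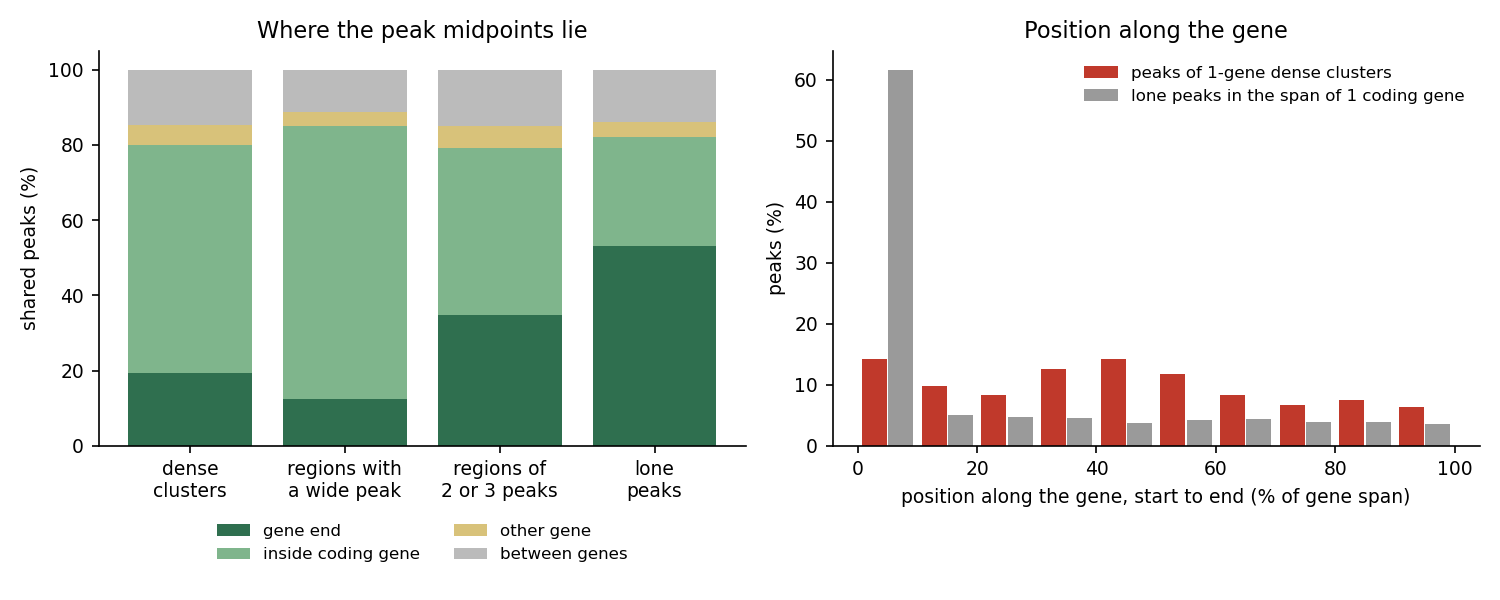
Left, share (%) of shared peaks whose midpoint lay at a coding gene's end, inside a coding gene, in another annotated gene or between genes, for the 4 kinds of joined region. Right, share (%) of peaks in each 10% of the gene span from start to end, for 1321 peaks of 1-gene dense clusters in 198 genes and 4450 lone peaks in the span of 1 coding gene, gene ends included in both. The first 10% holds 14.2% of the peaks of dense clusters and 61.7% of the lone peaks.

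Between them the clusters overlapped 1017 protein-coding genes, which is 4.92% of the 20661 on chromosomes 1 to 19. On list 2 alone the number was 2123 (10.3%), and on list 1 alone 1057 (5.12%). Of the clusters, 441 overlapped 1 coding gene each, 121 overlapped 2, 38 overlapped 3, 53 overlapped at least 4 and 68 overlapped none. Several genes carried more than 1 cluster. Tacc2, which encodes a centrosome-associated coiled-coil protein, held 5 clusters with 27 peaks over its 215 kb, and the zinc finger factor gene Casz1 held 4 with 24 peaks. A further 7 genes held 3 clusters each: Cd36, Fhod3, Gse1, Myo18b, Myocd, Nfia and Zmiz1. Of these, Myocd, a coactivator of serum response factor in cardiac and smooth muscle, had 18 peaks, Zmiz1 had 22, and Cd36, the fatty acid translocase, had 13.

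The cluster with the most peaks lay inside Cacna1c, which encodes the pore subunit of the L-type calcium channel that starts each contraction. Its 44 peaks over 153 kb (chr6:118819223-118972689) were all inside the gene body, with list 1 folds of 3.29 to 9.50 and a median of 5.15, and list 2 folds with a median of 4.52. List 2 held 65 peaks over the same stretch, and 26 of the 44 partners reached a −log10 p of 5. The peaks were shallow, with a median of 13.5 reads. A cluster that covered nearly the whole span of its gene lay at Rbpms (chr8:33786319-33930546), an RNA-binding splicing regulator of muscle, with 40 peaks over 144 kb and median folds of 5.69 in list 1 and 4.08 in list 2. Qk, a further splicing regulator, carried a cluster of 20 peaks over 74.0 kb (chr17:10261621-10335617) and a separate one of 13 peaks over 45.8 kb.

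Asb2, whose promoter is printed above, lay with Fam181a in a cluster of 25 peaks over 56.5 kb (chr12:103311838-103368343). Its peaks included 1 inside Asb2 with folds of 15.5 in list 1 and 7.62 in list 2, and 1 inside Fam181a with folds of 5.84 and 22.7. The cluster's median folds were 4.73 and 3.49. Rhobtb1, an atypical GTPase gene, had 20 peaks over 51.8 kb (chr10:69239555-69291347) with median folds of 4.95 in list 1 and 3.82 in list 2. Joined from list 2 alone, 21 of the 49 clusters named by rank were not kept. Among them were those at Cacna1c, Asb2, Rhobtb1, Qk, Hcn2, Kcnk3, Ppara, Myl3, Myom1, Pln, Fbxo32, Col4a2, Hspb3, Fadd and Pfkm and the densest one, near Fam205a4. In 20 of the 21 the cluster overlapped a joined list 2 region with a peak of 2000 bp or wider. That wide peak need not lie in the stretch of the cluster itself. Joined from list 1 alone, 1 of the 49 was not kept, at Ppargc1a. Among those kept on list 2 alone, the clusters at Nkx2-5, Insr, Gipc2 and Myo9b then held 25, 23, 21 and 10 peaks.

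**Figure D4:**
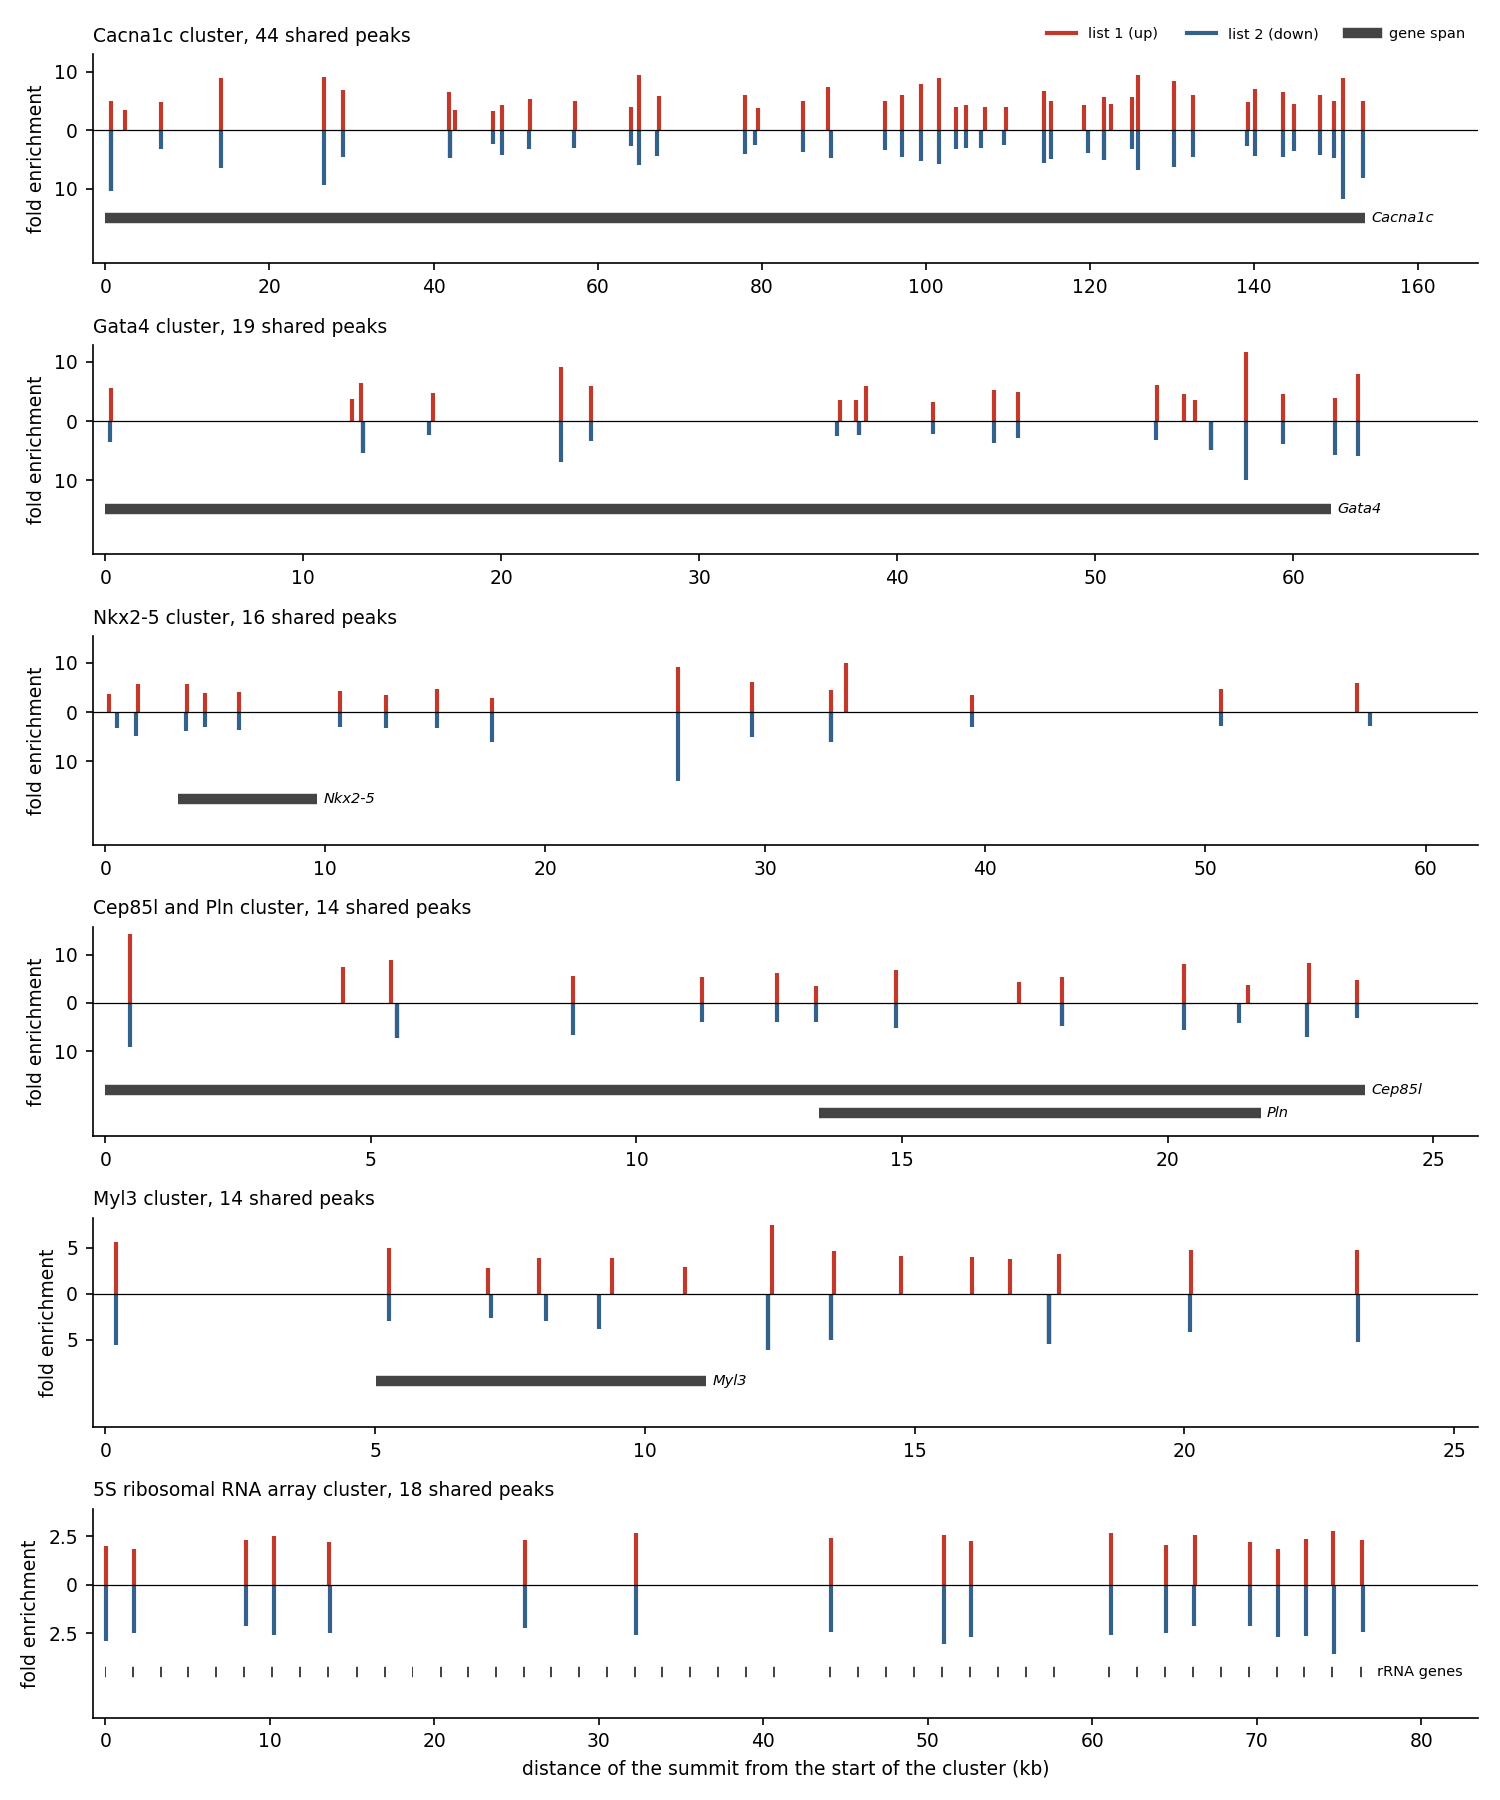
Shared peaks of 6 dense clusters, drawn at their summit by distance from the start of the cluster (kb), with list 1 fold upward and the fold of the overlapping list 2 peak downward; shared peaks with the same list 2 partner have 1 downward line, and fold axes differ between panels. Bars mark coding gene spans and ticks the ribosomal RNA genes; list 1 folds reach 9.50 in Cacna1c and 14.3 at Pln, and stay between 1.84 and 2.77 in the 5S array.

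Several genes of cardiac transcription factors lay inside clusters. Of 25 listed factors, 10 (40.0%) were overlapped by a dense cluster, beside 4.92% of all coding genes, and 3 by a region with a wide peak, beside 1.28% of all coding genes. Those in dense clusters were Gata4, Nkx2-5, Tbx20, Mef2d, Myocd, Tead1, Meis1, Meis2, Irx4 and Prdm16. With no peak of 1000 bp or wider allowed, 2 of the 25 (8.0%) were in a cluster, beside 2.13% of all coding genes. The clusters at Gata4, Nkx2-5 and Meis1 described below were not kept under that limit. Gata4, a zinc finger factor of heart development, had 19 peaks over 63.6 kb (chr14:63209797-63273393). Its strongest peak lay inside the gene 57.6 kb from the cluster start with folds of 11.7 in list 1 and 9.88 in list 2 from 47 reads, whereas the peak at the gene end had 148 reads and folds of only 3.82 and 5.67. The deepest peak and the most enriched peak of this cluster were thus different ones.

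Nkx2-5, the homeobox factor of the early heart, had 16 peaks over 57.2 kb (chr17:26835355-26892590). The gene itself spans little of that cluster. The strongest peaks lay in a neighbouring long noncoding RNA gene, Gm17382, with folds of 9.17 in list 1 and 14.0 in list 2 at 26.0 kb from the cluster start and 10.003 and 6.01 at 33.7 kb. The peak over the promoter of Nkx2-5 had folds of 4.06 and 3.74 from 68 reads. Meis1, a homeobox factor of cardiomyocyte cell cycle exit, had 8 peaks with median folds of 4.13 in list 1 and 3.67 in list 2.

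Among calcium handling genes 7 of 20 (35.0%) lay in dense clusters, beside 4.92% of all coding genes, and 5 in regions with a wide peak. The 7 were Cacna1c and the channel subunit gene Cacnb2, the sodium-calcium exchanger Slc8a1, the kinase Camk2d, and Ryr2, Trdn and Pln of the sarcoplasmic reticulum. Of these, Cacna1c and Ryr2 were also overlapped by a region with a wide peak. Pln encodes phospholamban, the inhibitor of the calcium pump, and lies inside the span of Cep85l. Their cluster had 14 peaks over 23.7 kb (chr10:53324248-53347957) with median folds of 5.90 in list 1 and 5.05 in list 2. Its first peak, inside Cep85l and outside the span of Pln, had the highest folds, 14.3 and 9.20. The peak over the Pln promoter had folds of 3.55 and 3.85 from 38 reads. Ryr2, the calcium release channel, had 7 peaks in a stretch of 10.7 kb inside the gene (chr13:11611541-11622254), with list 1 folds of 4.79 to 7.96 from 9 to 16 reads each and list 2 folds of 2.94 to 5.49. Joined from list 1 alone this cluster held 16 peaks, and from list 2 alone 19.

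Of the ion channel and conduction genes 6 of 22 (27.3%) were in dense clusters, beside 4.92% of all coding genes, among them Kcnq1, Kcnh2, Kcnip2, Hcn2 and Kcnk3. With no peak of 1000 bp or wider allowed, 1 of the 22 (4.55%) was in a cluster, beside 2.13% of all coding genes. Kcnk3, a background potassium channel gene, had 16 peaks with median folds of 5.07 in list 1 and 4.64 in list 2. Hcn2, a pacemaker channel gene, shared a cluster of 20 peaks over 55.6 kb (chr10:79668893-79724470) with Tpgs1, Cdc34, Gzmm and Bsg. Neither cluster was kept on list 2 alone.

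Contractile genes lay partly in clusters and partly in regions with a wide peak, with Myom1 in both. Of 28 sarcomere genes 6 (21.4%) were in dense clusters, namely Myl3, Myom1, Myom2, Lmod3, Tmod1 and Smyd1, and 16 (57.1%) in regions with a wide peak, beside 4.92% and 1.28% of all coding genes. The count was 3 of the 28 (10.7%) on list 2 alone, near the 10.3% of all coding genes there. Myl3, the ventricular essential myosin light chain, had 14 peaks over 23.3 kb (chr9:110758663-110782005). Its strongest peak lay past the gene with folds of 7.50 in list 1 and 6.12 in list 2, and the peak over its promoter had 4.94 and 3.00. Myom1, which crosslinks thick filaments at the M-band, had 9 peaks with median folds of 5.92 and 4.29. Of 22 genes of the Z-disc and intercalated disc 9 (40.9%) were in dense clusters: Nexn, Pdlim5, Ankrd1, Synpo2l, Synpo2, Cdh2, Pkp2, Jup and Gja1. Gja1, a gap junction protein of working heart muscle, had 8 peaks with median folds of 4.52 in list 1 and 3.19 in list 2.

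Genes of energy metabolism were counted in 4 lists. In fatty acid oxidation 9 of 27 (33.3%) were in dense clusters, namely Cpt1b, Acadl, Hadha, Hadhb, Cd36, Acsl1, Lpl, Ucp2 and Ucp3. Hadha and Hadhb encode the subunits of the mitochondrial trifunctional protein and share a start region. Their cluster had 12 peaks over 24.1 kb (chr5:30152005-30176138) with median folds of 6.53 in list 1 and 4.10 in list 2. The peak over the shared start had folds of 8.18 and 4.06 from 65 reads, and the highest fold, 9.67 in list 1 and 6.10 in list 2, belonged to a peak deeper inside at 20.03 kb from the cluster start. In oxidative phosphorylation and the TCA cycle 8 of 35 (22.9%) were in dense clusters, in glycolysis and glycogen metabolism 7 of 23 (30.4%), and among regulators of metabolic maturation 3 of 28 (10.7%), again beside 4.92% of all coding genes. On list 2 alone, beside 10.3% of all coding genes, these became 14 of 35 (40.0%), 14 of 23 (60.9%) and 9 of 28 (32.1%), in the same order. Ppara, the nuclear receptor that drives fatty acid oxidation genes, had 16 peaks over 83.2 kb (chr15:85653403-85736563). Only the last of those reached the gene; the others lay before its start, and the strongest, 56.8 kb from the cluster start, had folds of 17.4 in list 1 and 14.1 in list 2.

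The remaining lists ranged from 0 to 33.3%, beside 4.92% of all coding genes. Genes of autophagy and protein turnover had 7 of 24 (29.2%) in dense clusters, among them Sqstm1, a cargo receptor, and Fbxo32, a muscle ubiquitin ligase subunit. Chromatin factors had 2 of 22 (Kat2b and Kdm6b), collagens and matrix genes 2 of 26 (Col4a2 and Itga7), cell cycle genes 2 of 32 (Mcm2 and Meis1), genes of arginine methylation 1 of 17 (Jmjd6) and signalling receptors and ligands 1 of 20 (Insr). The shares of the last 2 lists, 5.88% and 5.0%, were near that of all coding genes. The counts on list 2 alone, beside 10.3% of all coding genes, became 7 of 22 chromatin factors (31.8%), 5 of 26 collagens and matrix genes (19.2%), 4 of 32 cell cycle genes (12.5%), 2 of 17 arginine methylation genes (11.8%) and 7 of 20 signalling genes (35.0%). Insr, the insulin receptor, had 11 peaks with median folds of 6.0 in list 1 and 5.36 in list 2. Of the marker lists, cardiomyocyte markers had 2 of 6 in dense clusters and 5 in regions with a wide peak, immune markers 1 of 4, and fibroblast, endothelial and mural markers 0 of 6, 0 of 5 and 0 of 4. The 19 neuronal and 20 hepatic genes had 0. A shared peak lay within 1000 bp of 46.9% of all coding genes, and of 3 of the 19 neuronal and 2 of the 20 hepatic genes.

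Gene length differed between the lists, and its part in these shares was not tested. Dense clusters overlapped 7.87% of coding genes over 100 kb, 4.59% of those of 30 to 100 kb, 3.80% of those of 10 to 30 kb and 5.15% of shorter ones. Median length was 63.9 kb in the calcium handling list, 30.2 kb for cardiac factors, 25.02 kb for sarcomere and 12.99 kb for oxidative phosphorylation genes, against 17.5 kb for all coding genes and 40.7 kb for the neuronal list.

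**Figure D5:**
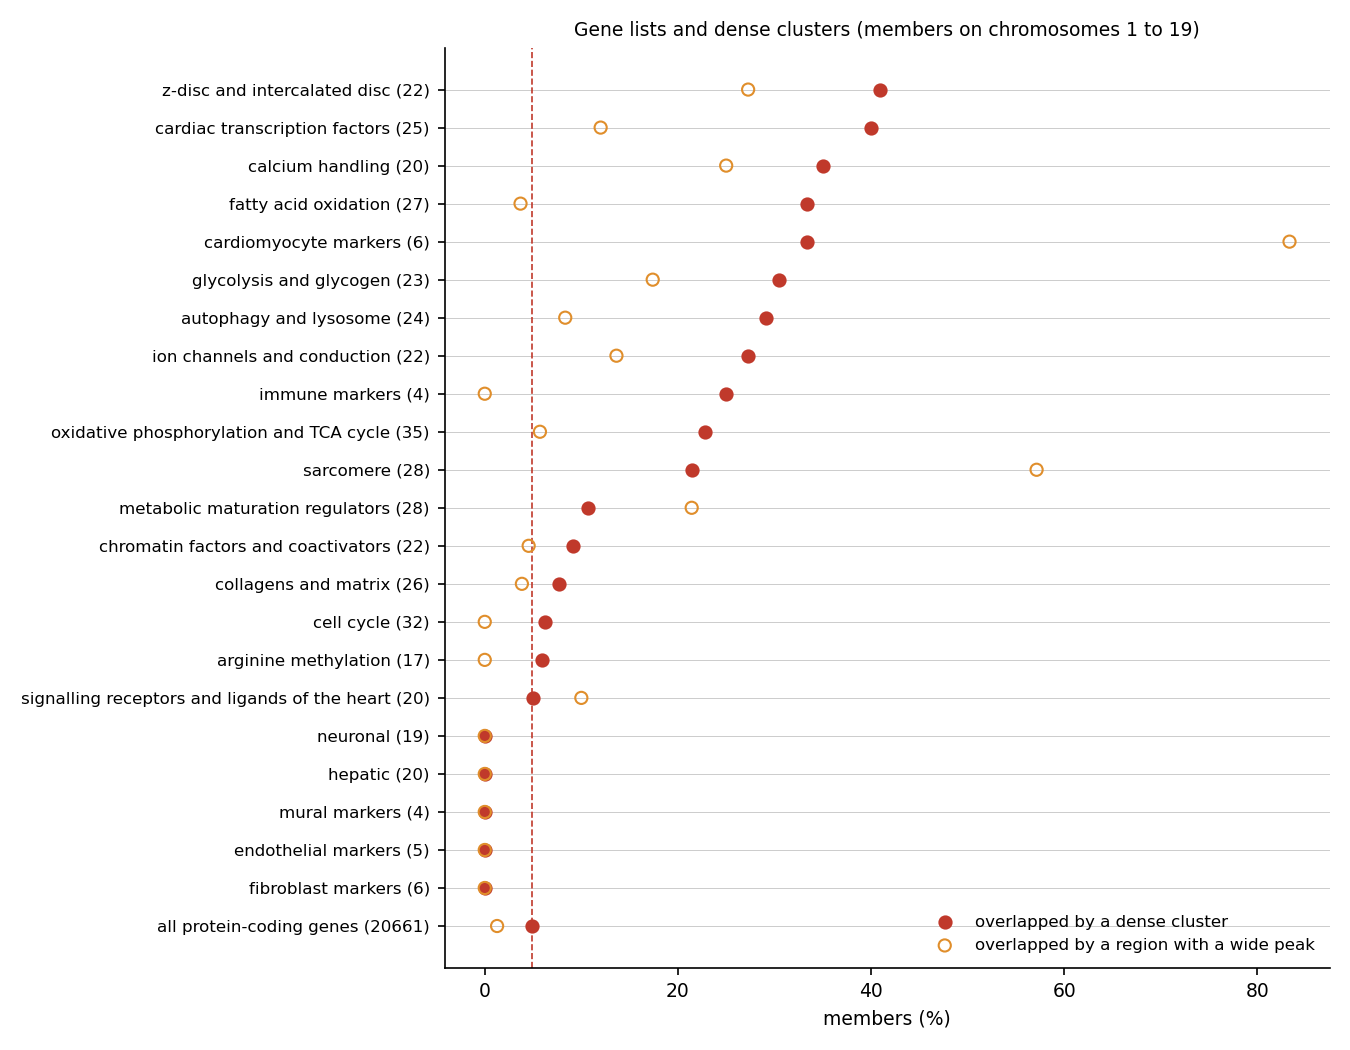
Share (%) of the members of each gene list whose span was overlapped by a dense cluster (filled) or by a region with a wide peak (open), with list sizes in brackets and a dashed line at the 4.92% of all coding genes overlapped by a dense cluster. Z-disc and intercalated disc genes reach 40.9% and cardiac transcription factors 40.0%, and fibroblast, endothelial, mural, hepatic and neuronal genes stand at 0.

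The clusters with the highest median folds were small. Myo9b, an unconventional myosin, had 4 peaks inside the gene with a median fold of 11.0 in list 1 and 7.70 in list 2, from 21 to 32 reads each. Fadd, a death receptor adaptor, had 4 peaks with medians of 10.49 and 11.4, though their list 1 folds ran from 2.95 to 17.8. A cluster 117 kb from Glul, which codes for glutamine synthetase, had 5 peaks with medians of 10.4 and 7.34 and overlapped no coding gene. Pfkm, the muscle phosphofructokinase, and Asb8 shared 4 peaks with medians of 9.50 and 8.14, and Gipc2 had 6 peaks with 9.50 and 6.29. The densest cluster, 13.5 kb from Fam205a4, packed 4 peaks into 2.84 kb, at 14.1 per 10 kb. The clusters at Fadd, Pfkm and Fam205a4 were not kept on list 2 alone.

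Clusters without a coding gene included arrays of RNA genes. Of the 68, 41 held another annotated gene, 53 lay within 50 kb of a coding gene, and the median distance was 22.8 kb. The one with most peaks followed the 5S ribosomal RNA array near Gas8 (chr8:123542269-123618828), where 18 peaks over 76.6 kb each overlapped a 5S gene or pseudogene, of 46 annotated at a median spacing of 1698 bp. In 17 of them the summit lay past the higher-coordinate end of the nearest gene. Their median folds were 2.31 in list 1 and 2.53 in list 2, the second lowest list 1 median of all clusters, from a median of 166.5 reads over a background of 71.0. The background ranked 3 among clusters, from the highest. The 5S copies are near-identical, so how reads were shared among them is uncertain and these 18 peaks are not 18 separate measurements. List 2 alone joined 47 peaks there. A cluster of 11 peaks near Gm40363 (chr6:47739762-47789006), which holds the Y RNA genes Rny1 and Rny3, had a median of 845.5 reads over a background of 398.3 and median folds of 2.45 in list 1 and 3.09 in list 2.

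Transfer RNA genes were also found in clusters, 78 of the 391 annotated (19.9%, beside 4.92% of coding genes), with 50 of those under a peak (64.1%), against 151 of all 391 (38.6%). The cluster at Abt1 on chromosome 13 held 14 of them with 8 peaks, 7 of which overlapped a transfer RNA gene, and had median folds of 6.60 in list 1 and 4.97 in list 2. A neighbouring cluster (chr13:23517219-23586088) spanned 15 histone genes and 8 transfer RNA genes with 12 peaks and folds of 3.55 and 4.52. Both gene families have near-identical copies, so the reads given to single copies are uncertain. Of 12408 long noncoding RNA genes, 298 (2.4%) lay in clusters, a smaller share than the 4.92% of coding genes. A shared peak overlapped 266 of those 298, against 1871 of all 12408 (15.1%). Clusters are made of shared peaks, so any gene in them is more likely to lie under one by the rule itself. The higher shares under a peak are therefore no result about transfer RNA or long noncoding RNA genes.

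Promoter windows under a peak were rich in GC boxes inside clusters and elsewhere. Among 694 windows of coding genes in clusters and under a shared peak, 70.5% held GGGCGG (the GC box), 6.63% TATAAA, 7.20% AGATAA (the GATA motif), 3.17% AAGGTCA (a core bound by nuclear receptors), 3.60% the MEF2 core and 60.5% CANNTG (the E-box), each searched on both strands. In 6692 windows under a shared peak elsewhere the shares were 71.1%, 5.30%, 4.45%, 2.81%, 2.99% and 59.2% in the same order. The shares in 115 windows inside clusters without a peak were 43.5%, 15.7%, 7.83%, 3.48%, 6.96% and 76.5%, again in that order. Those of all 20084 coding windows were 47.0%, 12.7%, 9.57%, 4.03%, 3.54% and 68.7%. The 7.20% in clusters under a peak was thus above the 4.45% elsewhere under a peak. It was below the 7.83% in clusters without a peak and the 9.57% of all coding windows. The median number of CG dinucleotides was 23 in marked windows of clusters, 24 in marked windows elsewhere and 14 in all. A match is a description of letters, not a binding site.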

How the data were processed

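H3R17me2a ChIP-seq of 2 wild-type heart samples was used, 1 deposited narrow-peak list per sample. Per the submitters' processing notes the tools were FastQC and Bowtie2 with the mm10 build; versions, peak caller, control library and total depth were not given in the sources used here. Of the deposited values, fold is a linear ratio at the summit, p-values and q-values are written as −log10, and the score follows −log10 p; all are the authors' own, per peak. Python 3.11.15, numpy 2.4.6, pandas 2.3.3, scipy 1.17.1 and matplotlib 3.10.9 were used. Summit reads and background were recovered from fold and p under a Poisson model. Values were found for 99.98% of list 1 peaks (within 0.001 on the −log10 scale) and 97.4% of list 2 peaks (within 0.005). The joining was tested on simulated data, as was the recovery without a scaling factor, the form used for list 1. The list 2 recovery, with its fitted scaling factor, was not simulated. Backgrounds as high as those of the ribosomal RNA array and the Y RNA cluster were not simulated either. Where 1 list 2 peak overlapped several list 1 peaks it was the partner of each. Genes came from RefSeq GRCm38.p6. A cluster is named by the coding genes it overlaps, else by the nearest one. Of the clusters, 49 were named by rank (most peaks, density, fold, length, no coding gene, up to 2 per gene list). Some members are not reported here by name. The Qk cluster of 13 peaks, the Mir499 and transfer RNA clusters and the 9 genes with several clusters were named after their values were seen. The members and the 22 gene lists (441 genes) were chosen with earlier results of these data known, so nothing was tested for enrichment. Alternatives in gap, peak number, width, overlap, p, q and list are given in the closing section. A single group allows no comparison between conditions.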

Additional observations from a re-analysis of the deposited data

Results flagged for a closer look

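Chromosomes X and Y lie outside the rule, and the same rule gave 3 clusters there, all on X, at Bcor (6 peaks), at Slc6a8 and Bcap31 (5 peaks) and at Tmem164 (4 peaks), from 287 shared peaks. They were noted because they carry the same kind of signal in sequence the counts leave out. List 1 also holds a peak on the mitochondrial chromosome with a fold of 1.534 and a −log10 p of 33.4, noted as signal outside the nuclear chromosomes. No control sample was given to set these values against.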

How the results depend on the processing

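No paired analysis was possible because both samples belong to 1 group. The number of clusters, 721, was 418 with a joining gap of 5000 bp, 1384 with 3 or more peaks, 415 with 5 or more, 318 when no peak of 1000 bp or wider was allowed, 404 when both lists were held to a −log10 p of at least 5 and 454 at a −log10 q of at least 2. Left to 1 list, it ran from 749 to 1594. The share of shared peaks in clusters, 20.73%, was 11.48% and 32.39% with gaps of 5000 and 25000 bp, 30.39% and 14.79% with 3 or 5 peaks, 30.8% with no width limit, 7.732% below 1000 bp, 14.3% at the p limit, 15.46% at the q limit and 14.57% when list 2 peaks were joined, and 21.27% to 27.34% left to 1 list. The median span, 18448 bp, was 9574 and 37376 bp with the other gaps, 13170 and 23176 bp with 3 or 5 peaks, 19628 bp with no width limit, 16731 bp below 1000 bp and 19608 bp with list 2 peaks joined, and 18448 to 20523 bp left to 1 list. Coding genes overlapped, 1017, numbered 379 and 2206 with the other gaps, 1712 and 632 with 3 or 5 peaks, 440 below 1000 bp, 584 at the p limit and 658 at the q limit, and 1057 to 2123 left to 1 list. The gene-end share, 19.47%, was 12.36% and 26.13% with the other gaps, 22.55% and 17.41% with 3 or 5 peaks, 17.14% with no width limit, 21.04% with list 2 peaks joined, 31.55% when an end reached 3000 bp, and 16.99% to 19.41% left to 1 list. The median list 1 fold, 5.093, was 5.655 at the p limit and 5.578 at the q limit.

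Of the 721 clusters, 337 still overlapped a kept cluster with a gap of 5000 bp, 387 at the p limit, 506 with list 2 peaks joined, 512 on list 2 alone and 719 on list 1 alone. Of the 49 clusters named by rank, 12 were kept below 1000 bp and 40 or more with the other gaps, 5 peaks or the p or q limit. The share of list members in clusters was above that of all coding genes in each of 13 settings for cardiac transcription factors, calcium handling, ion channels, sarcomere, Z-disc, fatty acid oxidation, oxidative phosphorylation, glycolysis, autophagy and chromatin genes and the cardiomyocyte markers. The margin could be small: on list 2 alone sarcomere genes had 10.71% against 10.28%, and below 1000 bp ion channels, glycolysis, autophagy and chromatin genes each rested on 1 gene. It was above in 12 for metabolic maturation and collagens, 11 for signalling, cell cycle and immune genes, 8 for arginine methylation, 2 for mural markers and 0 for fibroblast, endothelial, neuronal and hepatic genes. Reads at most peaks were few, total depth is unknown, and no interval here covers more than counting error.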
